A study of Botryllus schlosseri with 27 samples.

Results

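The comparison described here is that of line SMG of the colonial ascidian Botryllus schlosseri at 3 years of age with the same line at 4 months. It was taken by sample label as 6 of the 27 RNA-seq libraries of the series, 3 libraries at 3 years (genotype SMG_g1) and 3 libraries at 4 months (genotype SMG_g3). These are called old and young. The whole series holds 3 lines, SMG, SB825 and SMH, each sampled at 4 months, 2 years and 3 years with 3 libraries for each line and age. All colonies were reared in the laboratory and matched at one stage (B2) of the blastogenic cycle, and RNA came from whole colonies. By the design text of the series, the 2-year SMG colony was an offspring of the old one and the young colony an offspring of the 2-year one, so age, generation and colony cannot be told apart. The 3 libraries of an age carry 1 genotype name and are together called a colony here. The study's methods speak of 3 systems per sample and of biological replicates, and whether the libraries came from separate colonies of that genotype is not clear. The p-values therefore measure only the spread between these libraries, which may be technical. The names of the young columns in the count table read SMGO where the sample titles read SMG, and they were treated as the same line.

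A Botryllus colony is a group of zooids in a shared tunic, joined by a vascular network that lies outside their bodies. Zooids are short lived and are replaced in cycles by buds, while the genotype persists, so the age of a colony is not the age of its bodies. Colonies become sexually mature some time after metamorphosis, and testes and oocytes then develop with the zooids, and filter feeding supplies a gut that takes up much of each zooid. In whole colonies, fewer cells of a type and less RNA per cell cannot be told apart.

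The values are reads per contig of an expressed sequence tag (EST) assembly. Old libraries held 36752980, 36633786 and 44379398 reads, and young libraries 34321570, 37736608 and 38268412 reads. Levels are given as CPM, each library's counts divided by its scaled total and brought to a common depth within the 6 libraries, so levels of different contigs cannot be compared, since their lengths were not used here. A contig was tested where it had 1 CPM or more in 3 of the 6 libraries, and was called where edgeR's adjusted p was under 0.10. Of 50106 contigs, 28685 were tested and 23439 were called (81.7%), with 12398 higher in old (43.2%) and 11041 lower in old (38.5%). Of the calls 52.9% were thus higher in old, against 43.0% when libraries were scaled by their totals alone, so the balance of directions depends on the scaling. At 2-fold or more, 14598 were called (50.9%), of which 9043 were called higher in old (31.5%) and 5555 lower in old (19.4%). In 81.3% of the tested contigs the libraries of the ages did not overlap, with old above in 43.1% and young above in 38.2%. The median size of the log2 difference was 1.04 in SMG, against 0.48 in SB825 and 0.47 in SMH, and the median signed difference in SMG was 0.11. Called contigs therefore make up most of the contigs tested, and a list of contigs has to be read against these shares.

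The young SMG colony stood apart from the rest of the series. A total of 11663 contigs had no read in any of its 3 libraries, against 4576 in the old SMG colony and 4509 to 5919 in the 8 colonies other than young SMG. Each young library alone had 14093 to 14378 contigs without a read, while old libraries had 5951 to 6339. Within an age the libraries correlated closely over log2 CPM of all tested contigs, with r of 0.985 to 0.986 among old libraries and 0.962 to 0.984 among young ones, and between the ages r was 0.614 to 0.642. The 10 most abundant contigs took 18.6% to 20.7% of the reads in old libraries and 6.54% to 12.2% in young ones. It is the only 4-month colony of line SMG analysed here, so no result below could be computed without it, and what sets it apart was not tested.

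**Figure D1:**
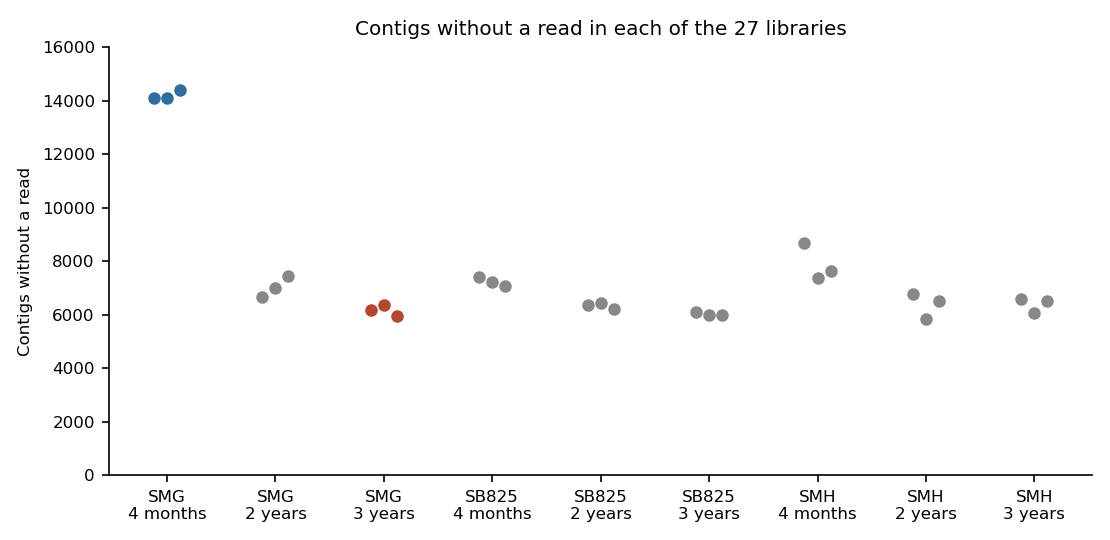
Contigs without a read (vertical axis, number of 50106 contigs) in each of the 27 libraries, by line and age, with 1 point a library. The 3 libraries of the 4-month SMG colony lie between 14093 and 14378, above every other library, and the 3 libraries of the 3-year SMG colony lie between 5951 and 6339.

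Names of human homologs were available for 888 contigs, 10 from the study's short list of age-linked genes outside fertility and the rest from its list of contigs that differed with age. Of these, 667 were tested in SMG, 503 were called higher in old, 84 were called lower and 80 were not called. Their median log2 difference was 3.71, against 0.11 over all contigs tested. The study chose these rows on libraries that include the 6 used here, so their direction and the share called are not independent evidence.

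Cytoskeletal homologs differed in both directions, and the direction largely followed which of the study's lists gave the name. The 10 contigs of the short list, which hold 4 tubulins, the building blocks of microtubules, were each called lower in old, with log2 differences from -3.39 to -1.47 and a median of -2.48. Tubulin alpha-3C/D (CAP3_round1_contig_7678) had 56.3, 49.1 and 48.7 CPM in old libraries, against 472, 580 and 562 CPM in young ones. The groups were separated by a wide gap, with a log2 difference of -3.39 (SE 0.11, adjusted p = 2.35e-08). The other 3 tubulins behaved alike. Tubulin alpha-3E had 12.7, 10.9 and 11.9 CPM in old libraries and 85.7, 114 and 104 CPM in young ones, a log2 difference of -3.10 (SE 0.13, adjusted p = 5.74e-08). The log2 differences of alpha-1A (Bot_rep_c58495) and beta-2C (Bot_rep_c57029) were -2.76 (SE 0.10) and -2.44 (SE 0.13). No old library reached the lowest young library for any of the 4.

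Actin filaments showed the same direction. A cytoplasmic actin (CAP3_round1_contig_6729) had 107, 139 and 151 CPM in old libraries and 373, 359 and 365 CPM in young ones, a log2 difference of -1.47 (SE 0.12, adjusted p = 3.36e-06). A subunit of actin related protein 2/3, the complex that starts branched filaments (Bot_rep_c48230), had 42.0, 41.2 and 42.0 CPM in old libraries and 251, 234 and 230 CPM in young ones (log2 difference -2.51, SE 0.08, adjusted p = 2.24e-08). Transgelin-2 (Bot_rep_c54695), an actin-binding protein that was not on the short list, had 59.7, 61.1 and 64.5 CPM in old libraries and 192, 209 and 219 CPM in young ones (log2 difference -1.74, SE 0.09). Troponin T (Bot_rep_c51715), part of the calcium switch of muscle, had 32.8, 35.3 and 35.04 CPM in old libraries and 136, 158 and 166 CPM in young ones (log2 difference -2.16, SE 0.10, adjusted p = 1.14e-07). These 4 contigs were lower in all 3 old libraries. The other tested muscle names went the opposite way, so that of 4 names 3 were tested, with 2 called higher in old and 1 lower. Troponin C (Bot_rep_c54184), the calcium-binding partner of troponin T, had 4.19, 4.83 and 4.45 CPM in old libraries and no young read, a called difference in which old was at least 185-fold higher when the young group is set at 3 reads over its 3 libraries. Myosin-8 (CAP3_round1_contig_6263), a myosin heavy chain of muscle, had 1.42, 2.13 and 2.66 CPM in old libraries and 0.10, 0.09 and 0.05 CPM in young ones (log2 difference 4.63, SE 0.41).

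The remaining contigs of the short list bear on matrix, cell death and division. Collagen alpha 1 (II) (CAP3_round1_contig_8075), a fibrillar collagen, had 179, 121 and 155 CPM in old libraries and 442, 508 and 570 CPM in young ones (log2 difference -1.74, SE 0.16, adjusted p = 1.07e-05). Caspase 2 (Bot_c10337), a protease of programmed cell death, had 0.47, 0.84 and 0.61 CPM in old libraries and 5.30, 4.69 and 6.504 CPM in young ones (log2 difference -3.10, SE 0.24). Programmed cell death protein 5 (Bot_rep_c35773), which promotes apoptosis, had 26.5, 23.7 and 25.7 CPM in old libraries and 92.5, 99.7 and 109 CPM in young ones (log2 difference -1.99, SE 0.10). Cell division cycle protein 23 (Bot_rep_c37856), a subunit of the ubiquitin ligase that lets cells leave mitosis, had a log2 difference of -1.64 (SE 0.15). Caspase 2 was under 1 CPM in every old library, so it rests on 66 old reads.

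**Figure D2:**
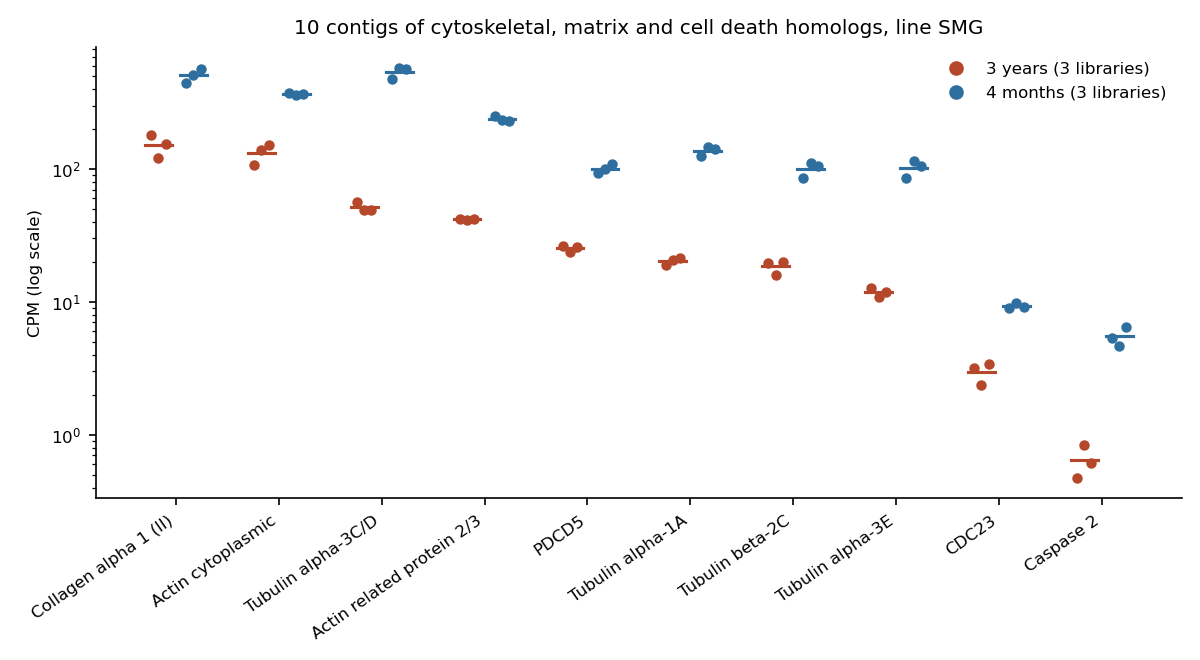
Level of the 10 short-list contigs in CPM (log axis) in the 3 old and 3 young libraries of line SMG, with 1 point a library and a bar at the mean of an age. Every young point lies above every old point of the same contig, from caspase 2 (0.47 to 0.84 CPM in old, 4.69 to 6.504 CPM in young) to collagen alpha 1 (II) (121 to 179 CPM in old, 442 to 570 CPM in young).

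Most tested cytoskeletal contigs outside the short list were called higher in old, as were 503 of the 667 named contigs tested. Transgelin-2 above was an exception. Of 14 tubulin names 12 were tested, and the 8 outside the short list were each called higher in old, with log2 differences from 5.06 upward. The beta-2C contig CAP3_round1_contig_6824 had 115, 126 and 114 CPM in old libraries and 3.10, 4.596 and 2.94 CPM in young ones (log2 difference 5.06, SE 0.19). CAP3_round1_contig_6873, also beta-2C, had 113, 127 and 115 CPM in old libraries and 3.29, 4.04 and 1.96 CPM in young ones (log2 difference 5.25, SE 0.29). Of the 8, 4 had no read in the young colony. Those 4 passed the filter only through the old libraries, so their direction was set in advance. Bot_rep_c37245 (beta-2C) had 3.78, 3.61 and 6.599 CPM in old libraries, at least 192-fold higher in old, and Bot_c25399 (alpha-3C/D) had 5.55, 6.12 and 9.98 CPM, at least 298-fold higher. Both reached 1 CPM in all libraries of 5 other colonies, and the remaining 2 are described with the ribosomal contigs. Contigs that match the same human tubulin thus differed in opposite directions, and reads from near-identical tubulin copies may have been divided between them by the authors' counting, which makes single tubulin contigs uncertain. Summed over the 14 tubulin names, old libraries held 535, 524 and 519 CPM and young libraries 776, 964 and 919 CPM. Of 12 tested contigs in the wider actin list, 9 were called higher in old and 3 lower. Those higher in old were actin-binding and motor proteins, among them myosin-9 (Bot_rep_c36916), a non-muscle myosin, with 34.8, 35.8 and 32.3 CPM in old libraries and 2.53, 2.09 and 2.37 CPM in young ones (log2 difference 3.88, SE 0.11).

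Sperm and testis homologs were nearly missing from the young colony. Of 44 names 34 were tested, and each of the 34 was called higher in old, with a median log2 difference of 7.41, or 6.46 when the 13 contigs without a young read are put at their lower bound. Contigs under 1 CPM in every young library, among them those 13, passed the filter only through the old libraries. Their direction was set in advance, and 503 of the 667 named contigs tested were called higher. Summed over the 44 names, old libraries held 500, 535 and 464 CPM, against 6.63, 9.75 and 5.63 CPM in young libraries. A testis-specific serine/threonine-protein kinase 1 contig (Bot_rep_c45338), a kinase of maturing spermatids in mammals, had 112, 122 and 109 CPM in old libraries and 0.14, 1.16 and 0.05 CPM in young ones (log2 difference 7.95, SE 1.15, adjusted p = 0.0031). Fibrous sheath-interacting protein 2 (CAP3_round1_contig_4558), part of the sperm tail in mammals, had 83.7, 86.1 and 72.1 CPM in old libraries and 1.097, 1.58 and 1.24 CPM in young ones (log2 difference 5.94, SE 0.16). Kelch-like protein 10 (Bot_c24963), a testis ubiquitin ligase adaptor in mammals, had 8.74, 10.1 and 8.70 CPM in old libraries and no young read, and was at least 378-fold higher in old. Here and below such a bound sets the young group at 3 reads over its 3 libraries. The 20 tested contigs of axonemal dynein heavy chains, the motors of cilia and sperm tails, summed to 67.3, 75.1 and 58.8 CPM in old libraries and 2.15, 1.86 and 1.45 CPM in young ones.

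The other gonad-linked names that the study set aside gave a like picture. Of 27 such names 20 were tested, with 18 called higher in old and 2 lower, and a median log2 difference of 6.52 (6.47 with contigs without a read at their bound). Some of these names are also on the sperm list. Otoancorin (CAP3_round1_contig_9042), a cell surface protein of the mammalian inner ear, had 125, 141 and 121 CPM in old libraries and 1.05, 1.07 and 0.15 CPM in young ones (log2 difference 7.397, SE 0.77, adjusted p = 0.00079). A very low-density lipoprotein receptor contig (Bot_c22230), a receptor that takes up yolk in egg-laying vertebrates, had 3.603, 4.90 and 3.63 CPM in old libraries and no young read, at least 167-fold higher in old. One contig matching tenascin-X (CAP3_round1_contig_315), a matrix glycoprotein, was the largest change the other way, with 0.89, 1.35 and 1.53 CPM in old libraries and 22.6, 22.7 and 19.0 CPM in young ones (log2 difference -4.08, SE 0.19). On a common scale of the 9 SMG libraries, this contig averaged 19.4, 8.92 and 1.14 CPM at 4 months, 2 years and 3 years. The sperm list summed on that scale to 5.20 to 8.96 CPM at 4 months, 476 to 772 CPM at 2 years and 422 to 489 CPM at 3 years.

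On the same 9-library scale the short-list contigs had 2-year levels nearer to the 3-year levels than to the 4-month levels in 10 of 10 cases. The same count over all contigs was not made. Over contigs at large, the mean log2 CPM of the 2-year SMG colony correlated with the old colony at 0.906 and with the young at 0.814. The 10 of 10 is thus not shown to be particular to these contigs. Tubulin alpha-3C/D averaged 489, 35.8 and 46.6 CPM at 4 months, 2 years and 3 years. Collagen alpha 1 (II) averaged 461, 121 and 137 CPM, and cytoplasmic actin averaged 331, 110 and 120 CPM at these ages.

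**Figure D3:**
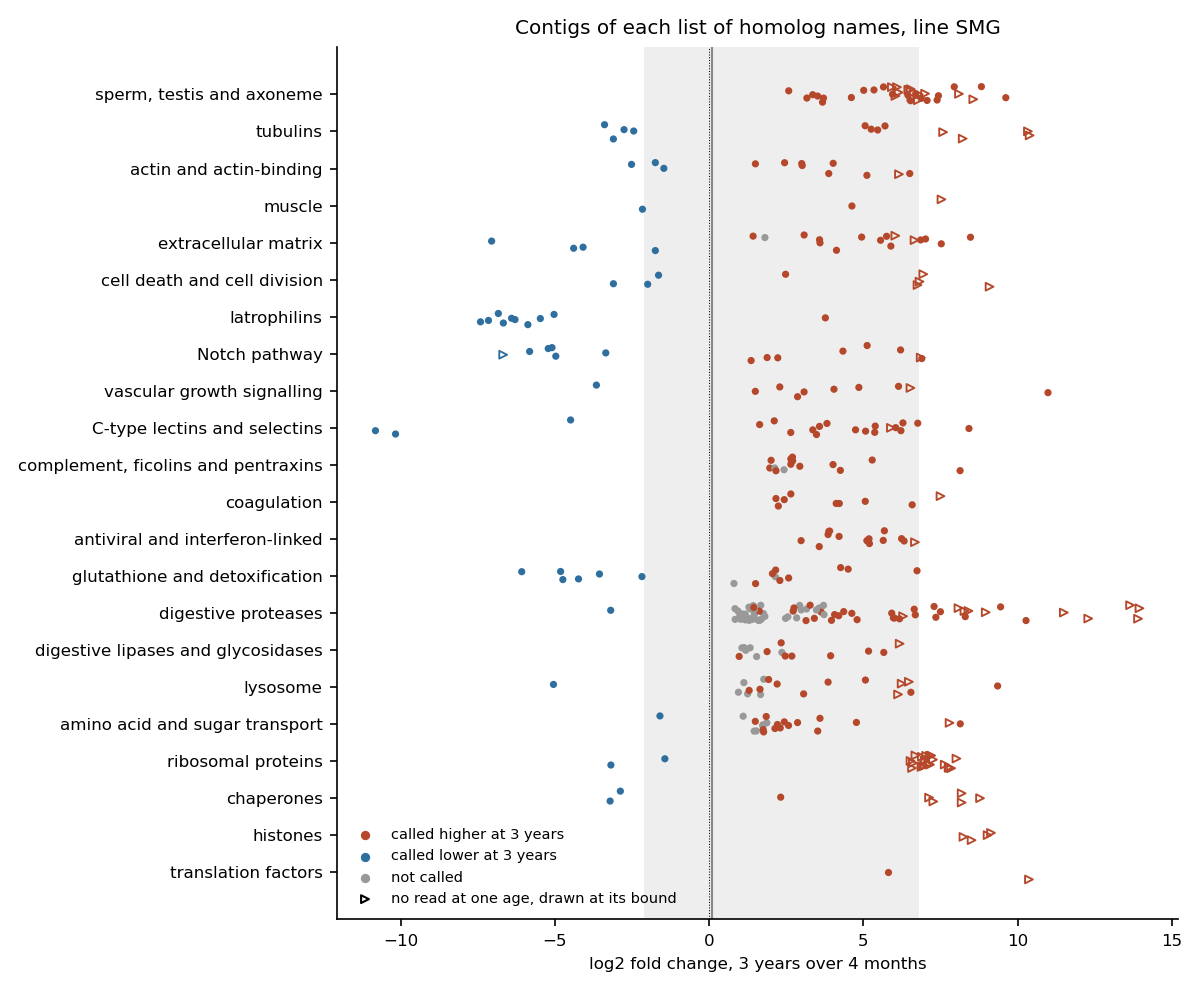
Log2 difference of each tested contig, 3 years over 4 months (horizontal axis), for 22 lists of homolog names, with 1 point a contig. Red points were called higher in old, blue points lower and grey points were not called, and an open triangle is a contig without a read at one age, drawn at its bound. The grey band covers the 5th to 95th percentile of all contigs tested (-2.07 to 6.76), and the grey line is their median, 0.11.

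Matrix homologs went both ways. Of 32 names 20 were tested, with 15 called higher in old, 4 lower and 1 not called. The share called higher was near that of all named contigs (503 of 667). The 4 lower were the collagen above, a tenascin-X contig (CAP3_round1_contig_315), an aggrecan contig and a cartilage intermediate layer protein 1 contig (Bot_c20604). The last had a log2 difference of -7.05 (SE 2.19), and another contig of that name (Bot_c3295) one of 5.89 (SE 0.90). Collagen alpha-1(XII) (Bot_rep_c45226), which coats fibrils of other collagens, had 81.2, 96.6 and 77.2 CPM in old libraries and 6.49, 6.68 and 8.16 CPM in young ones (log2 difference 3.58, SE 0.14, adjusted p = 3.73e-08). Perlecan, the basement membrane heparan sulfate proteoglycan (CAP3_round1_contig_956), had 9.04, 8.96 and 10.6 CPM in old libraries and 0.05, 0.00 and 0.10 CPM in young ones (log2 difference 7.53, SE 0.37). Aggrecan matched 2 contigs that moved apart. Bot_rep_c45512 had 27.9, 27.3 and 22.05 CPM in old libraries and 1.62, 0.70 and 0.15 CPM in young ones (log2 difference 4.94, SE 0.72), while Bot_c3785 had 0.53, 0.45 and 0.46 CPM in old libraries and 10.6, 11.6 and 8.26 CPM in young ones (log2 difference -4.39, SE 0.20). Summed over the 32 names the ages overlapped, with 528, 406 and 407 CPM in old libraries and 504, 558 and 642 CPM in young ones.

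Homologs of vessel and blood-contact proteins were higher in old with 1 exception. Of 15 names 10 were tested, with 9 called higher in old and 1 lower. Of all named contigs tested, 503 of 667 were called higher in old. Stabilin-2, a scavenger receptor of vertebrate sinus endothelium that clears hyaluronan, was among the 9. CAP3_round1_contig_9123 had 461, 687 and 662 CPM in old libraries and 7.92, 9.84 and 7.90 CPM in young ones (log2 difference 6.14, SE 0.20, adjusted p = 9.04e-08). Neuropilin-2 (Bot_rep_c47078), a co-receptor for semaphorins and vascular growth factors, had 31.6, 38.5 and 48.2 CPM in old libraries and 2 reads in the young libraries together (log2 difference 10.98, SE 0.49). An angiopoietin-related protein 2 contig (Bot_rep_c39326), a secreted fibrinogen-like factor, was lower in old, with 1.89, 2.26 and 1.53 CPM in old libraries and 23.1, 24.0 and 24.0 CPM in young ones (log2 difference -3.65, SE 0.15). Another contig of that name (Bot_rep_c47023) went the opposite way, with a mean of 2.235 CPM in old libraries and no young read. Clotting homologs had 13 names, 9 tested and 9 called higher in old, to be read beside the same 503 of 667. Contigs under 1 CPM in every young library, such as neuropilin-2 and coagulation factor V, passed the filter only through the old libraries. Their direction was set in advance. Coagulation factor V (CAP3_round1_contig_4005), a cofactor of thrombin formation in vertebrates, had 37.5, 35.2 and 30.5 CPM in old libraries and 0.14, 0.46 and 0.46 CPM in young ones (log2 difference 6.58, SE 0.34). Coagulation factor XII (CAP3_round1_contig_8067), which starts contact activation, had 107, 81.3 and 52.2 CPM in old libraries and 7.59, 3.16 and 3.10 CPM in young ones (log2 difference 4.12, SE 0.56, adjusted p = 0.0021).

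A few families were lower in old by large factors. Latrophilin-2 is an adhesion G protein-coupled receptor that binds teneurins across synapses and other cell contacts in vertebrates. Of 11 latrophilin names 10 were tested, and the 9 that match latrophilin-2 were each called lower in old. CAP3_round1_contig_6383 had 5.85, 5.29 and 6.39 CPM in old libraries and 770, 729 and 497 CPM in young ones (log2 difference -6.83, SE 0.21, adjusted p = 7.11e-08). Bot_c34719 had 1.06, 0.84 and 0.87 CPM in old libraries and 191, 170 and 111 CPM in young ones (log2 difference -7.41, SE 0.27). Together the 9 contigs held 24.3, 22.04 and 26.7 CPM in old libraries and 2544, 2357 and 1611 CPM in young ones. They share 1 human match and may be pieces of 1 or a few transcripts, so they are not 9 independent genes. The only other tested member, latrophilin-1 (Bot_c5563), was higher in old, with 4.43, 3.55 and 2.05 CPM in old libraries and 0.57, 0.14 and 0.00 CPM in young ones (log2 difference 3.77, SE 0.81).

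Several contigs of other families had much the same profile over the 6 libraries, with young library 3 the lowest of the young. A C-type lectin domain family 4 member C contig (Bot_rep_c36310), a sugar-binding receptor of dendritic cells in humans, had 0.18, 0.06 and 0.00 CPM in old libraries and 191, 158 and 86.6 CPM in young ones (log2 difference -10.81, SE 0.88, adjusted p = 0.00029). Sulfotransferase 1C4 (Bot_c9565), which conjugates small molecules with sulfate, had 5.97, 7.74 and 6.29 CPM in old libraries and 559, 505 and 281 CPM in young ones (log2 difference -6.07, SE 0.35). Attractin-like protein 1 (CAP3_round1_contig_5345), a membrane protein with lectin and CUB domains, had no read in the old colony and 71.2, 59.5 and 32.7 CPM in young libraries, at least 1890-fold lower in old.

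The Notch pathway, in which jagged ligands on one cell activate Notch receptors on its neighbour, was divided. Each of its 14 contigs was tested, with 8 called higher in old and 6 lower. Among receptors, Notch 1 (CAP3_round1_contig_9441) had 1.06, 1.68 and 1.74 CPM in old libraries and 69.4, 61.3 and 36.0 CPM in young ones (log2 difference -5.21, SE 0.36), and a Notch 3 contig (CAP3_round1_contig_9029) had a log2 difference of -5.81 (SE 0.42). Another receptor contig, Notch 2 (CAP3_round1_contig_6397), was higher in old, with 215, 272 and 212 CPM in old libraries and 72.0, 94.2 and 106 CPM in young ones (log2 difference 1.36, SE 0.16). Among ligands, jagged-1 (CAP3_round1_contig_5371) had 568, 857 and 629 CPM in old libraries and 28.8, 39.3 and 33.6 CPM in young ones (log2 difference 4.34, SE 0.20, adjusted p = 8.03e-07). A second jagged-1 contig (CAP3_round1_contig_9278) had 95.9, 133 and 101 CPM in old libraries and 2.34, 2.65 and 4.49 CPM in young ones (log2 difference 5.12, SE 0.32). These names rest on matches that may reflect the EGF repeats that Notch proteins share with many others. The level of the first jagged-1 contig at 2 years was unlike that at 3 years, with means of 30.8, 69.6 and 622 CPM at 4 months, 2 years and 3 years on the 9-library scale.

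Most tested homologs of innate immunity were called higher in old, as were 503 of the 667 named contigs tested. Of 18 names linked to antiviral defence 14 were tested and 14 were called higher in old, with a median log2 difference of 5.15 and a sum of 86.7, 89.5 and 83.8 CPM in old libraries against 4.72, 4.55 and 4.39 CPM in young ones. The 5 contigs of RNF213, a large ubiquitin ligase induced by interferon in mammals, summed to 48.5, 50.3 and 46.7 CPM in old libraries and 3.20, 3.16 and 3.10 CPM in young ones. DHX58 (Bot_rep_c37575), a sensor of viral RNA in vertebrates, had 2.42, 2.51 and 2.51 CPM in old libraries and no young read, at least 102-fold higher in old. Like DHX58, antiviral contigs under 1 CPM in every young library passed the filter only through the old libraries. Their direction was set in advance. Of 25 names in the complement, ficolin and pentraxin list 14 were tested, 12 were called higher in old and 2 were not called. Complement C3 (Bot_rep_c37224), the central protein of that cascade, had 12.99, 15.7 and 14.9 CPM in old libraries and 1.96, 2.23 and 2.48 CPM in young ones (log2 difference 2.71, SE 0.14, adjusted p = 1.89e-07). Neuronal pentraxin-2 (Bot_rep_c45268), which is in this list by its name and not by a shown immune role, had the highest level of the list. It had 78.1, 178 and 149 CPM in old libraries and 27.3, 36.95 and 39.4 CPM in young ones (log2 difference 1.97, SE 0.36). Of 35 C-type lectin and selectin names 20 were tested, with 17 called higher in old and 3 lower. The 3 lower included Bot_rep_c36310, described above. Summed over the 35 names the ages overlapped, with 257, 233 and 182.5 CPM in old libraries and 307, 242 and 135 CPM in young ones. The 8 tested contigs of macrophage mannose receptor 1, an endocytic lectin, were each called higher in old and summed to 135, 111 and 84.9 CPM in old libraries and 32.1, 10.9 and 6.81 CPM in young ones.

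Gut enzymes were higher in most old libraries, and how many passed depended on 1 young library and on the test used. Of 75 names of digestive proteases 73 were tested, 36 were called higher in old, 1 was called lower and 36 were not called. Summed over the 75 names, old libraries held 8871, 6632 and 3365 CPM, and young libraries held 3976, 664 and 265 CPM. Young library 1 was thus above old library 3, while the other 2 young libraries were below every old one. Without young library 1, 72 of the 73 contigs were called higher in old. Another test, limma-voom, also called 72 higher with that library kept. Chymotrypsinogen, a pancreatic serine protease in vertebrates, followed this pattern, with 18 contigs that summed to 2612, 2005 and 1040 CPM in old libraries and 1780, 74.1 and 9.24 CPM in young ones, of which 4 were called. Some trypsin-2 contigs were separate from this, since no young library held a read of them. CAP3_round1_contig_6862 had 548, 424 and 179 CPM in old libraries and none in young ones, and was at least 15800-fold higher in old. Bot_rep_c48453 had 526, 400 and 185 CPM in old libraries and was at least 15300-fold higher. The 1 protease contig called lower in old was a carboxypeptidase A2 (CAP3_round1_contig_6849), which removes residues from the end of peptides, with 81.7, 53.1 and 27.9 CPM in old libraries and 768, 483 and 232 CPM in young ones (log2 difference -3.19, SE 0.69, adjusted p = 0.012). Of the 7 tested contigs with this name, 2 were called higher in old and 1 lower.

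The same young library stood out for several other lists. Digestive lipases and glycosidases summed to 333, 250 and 146 CPM in old libraries and 206, 24.2 and 14.6 CPM in young ones, with 9 of 15 tested contigs called higher in old and 6 not called, and 15 of 15 called higher without young library 1. With that library kept, limma-voom also called 15 higher. An alpha-amylase (Bot_rep_c58397), which splits starch, had 81.6, 58.0 and 24.9 CPM in old libraries and 68.8, 2.51 and 0.77 CPM in young ones. The ages overlapped and it was not called (log2 difference 1.19, SE 1.79, adjusted p = 0.58), while without young library 1 the adjusted p was 0.015 (Bot_rep_c58397). Lysosomal names had 12 of 18 tested contigs called higher in old, 1 lower and 5 not called. Proactivator polypeptide (CAP3_round1_contig_6910), the source of the saposins that help degrade sphingolipids, had 183, 139 and 111 CPM in old libraries and 161, 44.3 and 18.6 CPM in young ones and was not called (log2 difference 0.95, SE 0.90, adjusted p = 0.38, or 0.023 without young library 1). Transporters of amino acids and sugars had 16 of 22 tested contigs called higher in old, 1 lower and 5 not called. One of them, rBAT (CAP3_round1_contig_7926), which carries cystine and basic amino acids into gut and kidney cells, had 134, 109 and 83.4 CPM in old libraries and 74.4, 24.2 and 14.4 CPM in young ones and was not called (adjusted p = 0.12, or 0.0019 without young library 1). The 3 libraries of an age, which share a genotype name, therefore differed in these transcripts, and whether they came from the same zooids was not tested.

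**Figure D4:**
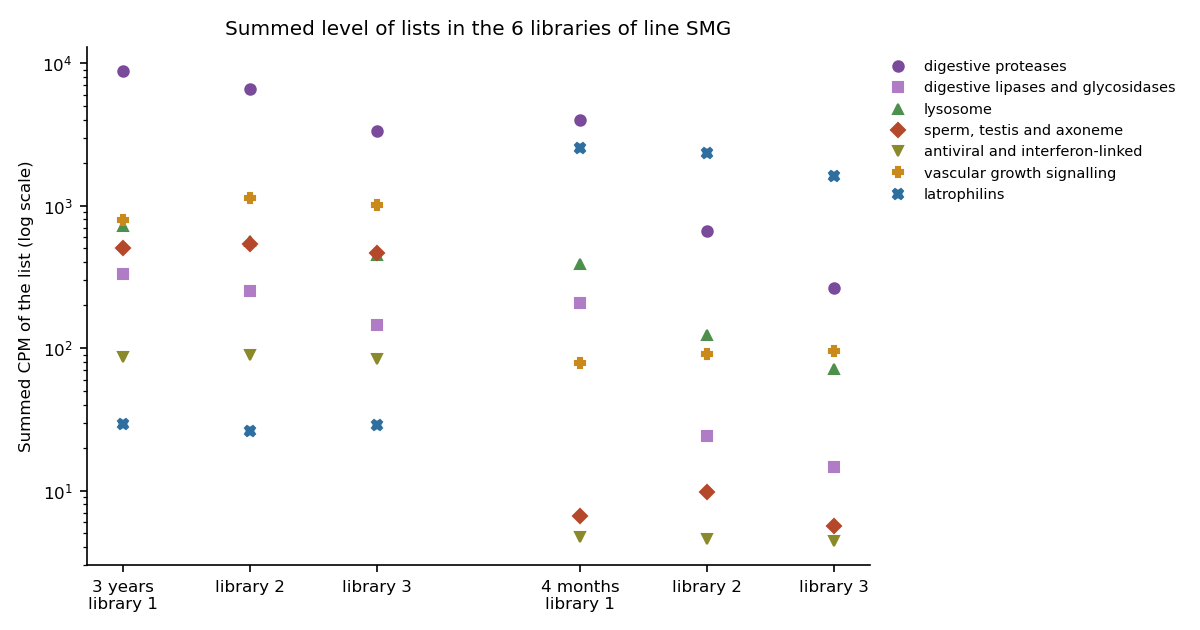
Summed level (CPM, log axis) of 7 lists of homolog names in each of the 3 old and 3 young libraries of line SMG, with 1 symbol a list. Digestive proteases in young library 1 (3976 CPM) lie above old library 3 (3365 CPM), while the sperm list (464 to 535 CPM in old, 5.63 to 9.75 CPM in young) and the latrophilins (26.0 to 29.3 CPM in old, 1611 to 2544 CPM in young) keep the ages apart in every library.

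Detoxifying and redox enzymes went both ways, with 8 of 16 tested contigs called higher in old, 6 lower and 2 not called. The 3 contigs of glutathione S-transferase Mu, which conjugates glutathione to electrophiles, summed to 1.77, 1.87 and 1.59 CPM in old libraries and 44.5, 45.5 and 47.5 CPM in young ones, and each was called lower. Mitochondrial phospholipid hydroperoxide glutathione peroxidase (Bot_rep_c48581), which reduces lipid peroxides, had 17.01, 25.8 and 24.5 CPM in old libraries and 0.81, 1.39 and 1.29 CPM in young ones (log2 difference 4.26, SE 0.25). In the list of cell death and division, 5 of 8 tested contigs were called higher in old and the 3 of the short list lower. FAS-associated factor 1 (CAP3_round1_contig_3411), which takes part in protein degradation and death signalling, had 14.5, 14.2 and 10.9 CPM in old libraries and no young read, at least 545-fold higher in old. A second caspase-2 contig (Bot_rep_c39524) had 2.42, 2.84 and 2.61 CPM in old libraries and no young read, the opposite of the caspase 2 contig above.

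Many contigs were present at one age only. At 1 CPM or more in each of the 3 libraries of an age and without a read in the 3 of the other, 959 contigs were found in the old colony and 46 in the young colony. The 959 contigs summed to 6284 to 7636 CPM in old libraries and had a median level of 2.77 CPM, and 121 of them carry a homolog name. A total of 3 reads over the 3 libraries of an age corresponds to 0.0289 CPM in old and 0.0242 CPM in young. Of the 959 contigs, 91 were at 1 CPM or more in every library of the 7 other colonies of the series, among them the trypsin-2 contig CAP3_round1_contig_6862, and 89 were not so in any of the 7. Of the 46 contigs of the young colony, 2 carry a name, attractin-like protein 1 above and Notch 2 (Bot_c8476), with 3.34, 2.83 and 2.63 CPM in young libraries. None of the contigs at 1 CPM or more in every young SMG library lacked reads in the 2-year SMG colony, while 46 lacked them in the old SMG colony and 72 to 215 in the 6 colonies of the other lines.

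Contigs of the protein synthesis machinery and other basic functions formed a separate set. Of 30 names of ribosomal proteins 22 were tested, and 20 were called higher in old. Those 20 had no young read, so they passed the filter only through the old libraries and their direction was set in advance. Of the 7 colonies other than old and young SMG, 18 of the 20 reached 1 CPM in all 3 libraries of the 2-year SMH colony alone. 60S ribosomal protein L3 (Bot_c1928) had 6.79, 5.93 and 6.09 CPM in old libraries and no young read, at least 259-fold higher in old. Elongation factor 1-alpha 1 (Bot_rep_c54065), which brings tRNA to the ribosome, had 39.9, 24.5 and 31.7 CPM in old libraries and no young read, at least 1320-fold higher, and histone H3.2 (Bot_rep_c36449) had 17.6, 10.2 and 13.1 CPM and no young read, at least 563-fold higher. Endoplasmin (Bot_c1472), a chaperone of the endoplasmic reticulum, had 12.9, 8.25 and 10.9 CPM and no young read, at least 440-fold higher. In the 4 lists of ribosomal proteins, translation factors, chaperones and histones, 28 contigs showed this distribution. Before scaling within the line, they summed to 121 to 191 CPM in old SMG libraries and 505 to 535 CPM in 2-year SMH libraries, while the other 7 colonies had at most 0.41 CPM and no read on 20 to 28 of the 28 contigs. Over all contigs, 156 that were called higher in old reached 1 CPM in all 3 libraries of the 2-year SMH colony and in those of no other colony outside line SMG at 3 years and 4 months. The tubulin contigs Bot_c19190 (alpha-1B) and Bot_c25642 (beta-2C), with 24.2 to 40.7 CPM and 24.9 to 41.9 CPM in old libraries and no young read, belong to them. The source of the reads on these contigs was not tested.

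The 4 exceptions in the lists of ribosomal proteins and chaperones were lower in old, and each reached 1 CPM in all libraries of the 7 other colonies. 40S ribosomal protein S21 (CAP3_round1_contig_5268) had 1657, 1612 and 1634 CPM in old libraries and 13958, 16042 and 14499 CPM in young ones (log2 difference -3.18, SE 0.07, adjusted p = 7.2e-09). The mitochondrial 10 kDa heat shock protein (CAP3_round1_contig_5525), a co-chaperone of protein folding, had 12.4, 9.54 and 12.6 CPM in old libraries and 72.6, 89.2 and 92.2 CPM in young ones (log2 difference -2.88, SE 0.14). An endoplasmin-like contig (Bot_rep_c57435) had 2.95, 2.19 and 2.66 CPM in old libraries and 19.9, 24.9 and 27.4 CPM in young ones (log2 difference -3.21, SE 0.16).

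Lines SB825 and SMH give the same comparison of ages in other libraries. In SB825, 17932 of 30915 tested contigs were called (58%), and 7016 at 2-fold or more (22.7%). In SMH, 17070 of 28428 were called (60%), and 6449 at 2-fold or more (22.7%). Of the calls, 51.7% in SB825 and 53.2% in SMH were higher in old, or 38.8% and 25.9% when libraries were scaled by their totals alone. Of the contigs called 2-fold higher in old SMG, 63.2% had the same sign in SB825 and 68.2% in SMH, against 50.6% and 52.0% of all contigs tested in both lines. Of those called 2-fold lower in old SMG, 65.4% had the same sign in SB825 and 68.0% in SMH, against 49.4% and 47.9% of all. Among contigs tested in all 3 lines, 612 of 7141 that were called 2-fold higher in old SMG were so in both other lines (8.57%), and 115 of 4722 that were called 2-fold lower (2.44%). Over all contigs tested in SB825, 15.2% were called 2-fold higher in old and 7.46% lower, and in SMH 14.4% and 8.29%. A fit of the difference between the SMG age difference and the mean of the other 2 called 25308 of 34707 contigs (72.9%), measured against the spread of libraries of the same genotype.

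The short-list contigs differed between lines. In SMH 10 of 10 had a negative log2 difference, while in SB825 3 of the 9 tested were slightly positive. Caspase 2 was not tested within SB825, where it had 1.13, 0.60 and 0.74 CPM in old libraries and 0.52, 0.25 and 0.48 CPM in young ones. The fall of tubulin alpha-3C/D in old was larger in SMG by -2.40 on the log2 scale (SE 0.16) than the mean of the other lines, with its own values of -2.01 in SMH and 0.07 in SB825. The same test gave -2.24 for tubulin alpha-1A, -2.08 for alpha-3E, -1.78 for beta-2C, -1.54 for collagen, -1.51 for actin related protein 2/3 and -3.21 for caspase 2, each with an adjusted p under the threshold. Programmed cell death protein 5 fell less in SMG than in the others, by 2.46 (SE 0.18), since its log2 difference in SB825 was -6.69. Cytoplasmic actin (CAP3_round1_contig_6729) gave 0.38, its difference from SB825 alone was -1.16, and it was not called without old library 2 (0.33) or 3 (0.26), with RLE size factors (0.31), with library totals (0.31) or without a filter (0.27). Cell division cycle protein 23 gave -0.17 and was not called (adjusted p = 0.46).

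Other groups had their own order of lines. The 9 latrophilin-2 contigs had log2 differences of -9.48 to -6.46 in SB825 and -2.28 to -0.22 in SMH, beside -7.41 to -5.02 in SMG. The sperm list had a median of 0.12 over 13 tested contigs in SB825, with 8 positive, and of 4.97 over 17 in SMH, with 17 positive. Digestive proteases had a median of 3.87 in SB825 and 5.27 in SMH, with 68 of 70 and 68 of 69 contigs positive, and clotting homologs had 8 of 8 positive in each line. Neuropilin-2 (Bot_rep_c47078) had a log2 difference of 0.41 in SB825 and 6.01 in SMH. Differences between lines over these lists as a whole were not tested.

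**Figure D5:**
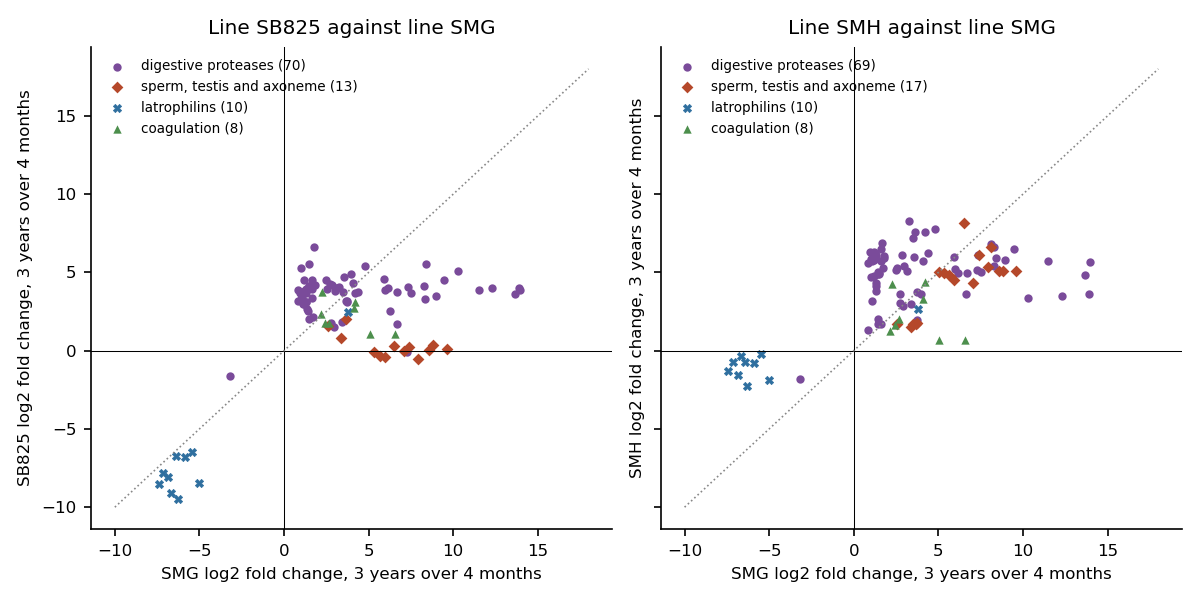
Log2 difference, 3 years over 4 months, of each contig of 4 lists in line SMG (horizontal axis) and in SB825 (left) or SMH (right, vertical axes), with the number of contigs tested in both lines in brackets and a dotted line of equal values. Contigs without a young SMG read are drawn at their bound. The latrophilin-2 contigs lie between -9.48 and -6.46 in SB825 and between -2.28 and -0.22 in SMH, and the sperm list has medians of 0.12 in SB825 and 4.97 in SMH.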

How the data were processed

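The authors prepared polyA libraries (TruSeq v2), sequenced them in pairs, removed the first 12 bases, mapped pairs with Bowtie 0.12.7 to Bot_asmb, an assembly of ESTs, and used Sam2Counts with SAMtools 0.1.18 to obtain the number of reads on each contig. They deposited raw counts for 50106 contigs. No count is odd. Their DESeq result table was not used. Totals of the 6 libraries were 34321570 to 44379398 reads.

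Here counts were scaled by TMM within each line and tested with the robust quasi-likelihood F-test of edgeR 4.0.16 (R 4.3.3) on contigs with 1 CPM or more in 3 libraries, with Benjamini-Hochberg adjustment at 10%. Standard errors were derived from F. Alternatives used limma 3.58.1 and DESeq2 1.42.0. The functions were tested on simulated data. Libraries of an age differed by more than sampling noise (chi-square per degree of freedom 4.85 or more), so none was a plain resampling of another. This check cannot tell separate preparations of the same RNA from separate samples.

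Homolog names came from the first 1998 rows of the study's supplementary list and its short list, and 23 lists were patterns over these names. Named contigs were the short list, the highest level and largest changes of each list, the largest changes among named (5 each way) and unnamed contigs (2 each way) at 5 CPM or more, and the highest without a read at the other age. Other members, such as transgelin-2, myosin-9 and complement C3, were named after their values were seen. Members and lists were chosen with earlier results of these data known. Replicate numbers did not pair libraries (correlations of deviations 0.24, -0.06 and 0.27). Sequences, positions and lengths of contigs were not used here.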

Additional observations from a re-analysis of the deposited data

Results flagged for a closer look

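The age difference of SMG was set against the mean age difference of SB825 and SMH in 1 fit of 18 libraries, and results past the 10% threshold are listed. They number 25308 contigs of 34707. Among the 10 short-list contigs, 7 were lower in old by more in SMG: caspase 2 (-3.21), tubulin alpha-3C/D (-2.40), alpha-1A (-2.24), alpha-3E (-2.08), beta-2C (-1.78), collagen alpha 1 (II) (-1.54) and actin related protein 2/3 (-1.51). Caspase 2 failed the filter within SB825, where it lay between 0.25 and 1.13 CPM, so its value rests on low counts in that line. Programmed cell death protein 5 (2.46) and cytoplasmic actin (0.38) had differences of the opposite sign. Cytoplasmic actin was not called with RLE size factors, library totals alone or no filter, nor without old library 2 or 3. Each line has 1 genotype an age, so a difference between lines and one between genotypes cannot be told apart.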

How the results depend on the processing

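Alternatives were other scalings, filters, tools, read pairs in place of reads, a fit of all 27 libraries and each library left out. The count of calls at 2-fold was 7520 at a log2 difference of 2 or more. Without a filter it was 25852 (18562 higher in old, and 21861 higher among all calls), and filterByExpr gave 13961 higher in old, as more contigs were tested. Leaving out 1 library, with the tested contigs kept, gave up to 15074 calls at 2-fold and 9636 higher in old. With the filter set again after leaving out an old library, an alternative chosen after seeing the data, 9118 to 9291 were called at 2-fold and 4925 to 5031 higher in old, since contigs absent in young could not pass with 2 old libraries. Scaling by library totals moved the median of all SMG contigs from 0.108 to -0.237, and in SMH gave 4980 calls higher and 14263 lower. At 5 CPM, 177 contigs were without a young read and 14 without an old one, and allowing 2 reads gave 84 for old. For cytoplasmic actin (CAP3_round1_contig_6729) the difference against SB825 alone was -1.16 (adjusted p = 3.8e-05), and for cell division cycle protein 23 (Bot_rep_c37856) against SMH alone 0.41 (0.14), each of opposite sign. With limma-voom, as without young library 1, 72 digestive proteases were called higher. The cause was not tested. The numbers did not pair libraries, and with them as a block SMG old minus young, contigs called, was 23297. Of 1035 values for 69 named contigs, 1023 kept their direction and call, 9 gained a call, 3 lost it and 0 changed direction. With 1 genotype an age, more reads would not separate age from genotype.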

Other observations

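The largest changes among contigs without a named homolog were contigs present at one age. CAP3_round1_contig_7477 had 230, 288 and 266 CPM in old libraries and no young read, at least 10800-fold higher in old, and averaged 0.20 CPM in the 2-year SMG colony on the 9-library scale. CAP3_round1_contig_5548 had 222, 202 and 227 CPM in old libraries and no young read, at least 8960-fold higher, and averaged 217.5 CPM at 2 years. Bot_rep_c54712 had no read in the old colony and 48.9, 57.1 and 61.0 CPM in young libraries, at least 1930-fold lower in old, while its log2 difference was 10.83 in SB825 and -3.42 in SMH. Bot_rep_c57562 had no read in the old colony and 24.2, 28.5 and 29.4 CPM in young libraries, with 9.68 in SB825 and -2.60 in SMH. The sign in SB825 was thus the opposite for both.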
